A study of Mus musculus with 2 samples.

Results

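The genes Stab2, Bcas1, Tiam1, Rxrg, Igfbp7, Cacna1e and Pgam2 were followed through single bone marrow progenitors of mice with and without LCR1. These 7 of the 31053 listed genes had been selected on values of these same libraries, either for lower sums of unique molecular identifiers (UMIs) in knock-out Zbtb16-positive precursors of innate lymphoid cells (ILC) or because they lead that cell state. The difference between genotypes in those precursors is therefore given as a description. All 7 were listed in both matrices.

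The KO library came from LCR1-/- animals and the WT library from LCR1+/+ animals, all of the C57BL/6 strain, 8 to 12 weeks old and with as many males as females. Marrow was sorted for viable CD45+ cells without lineage markers and with CD127, the interleukin-7 receptor alpha chain, and the animals of a genotype were pooled into 1 library of 10x Genomics 3′ chemistry. The study asked how ILC2, the ILC that make type 2 cytokines, develop when LCR1 is missing. With 1 library per genotype no difference has a replicate check, cells were not treated as replicates, and no p-value is given. LCR1 is not a listed gene, so its deletion could not be read from the counts.

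In the marrow, ILC descend from lymphoid progenitors through a precursor that transiently makes the zinc-finger factor Zbtb16, also called PLZF. Commitment to the ILC fate needs Id2, a helix-loop-helix protein without a DNA-binding region that binds E proteins such as Tcf3 and Tcf12 and keeps them off DNA. E proteins recognise the E-box, the 6-letter motif CANNTG. The 7 genes have no common pathway: they encode a Rac activator, a nuclear receptor, a calcium channel subunit, a secreted growth factor binding protein, a scavenger receptor, a cytoplasmic protein known from brain and a glycolytic enzyme.

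Barcodes with at least 1000 genes and at most 10% mitochondrial UMIs were kept, which left 4343 of 8476 in KO and 3290 of 20293 in WT, with medians of 7261 and 5371.5 UMIs. The libraries shared 75 barcode sequences, of which 0 were among the kept cells. Cells joined the class of which they carried the most distinct markers, from 12 lists of 6 markers that contained none of the 7 genes and not Id2. The ILC precursor-like class held 462 KO cells, 10.6% of those kept (Clopper-Pearson 95% interval 9.74% to 11.6%), and 156 WT cells, 4.74% (4.04% to 5.52%), with medians of 9401 and 11085.5 UMIs. Its 10 leading genes included 4 of its own markers in each library, Zbtb16, Tox2, Pdcd1 and Tcf7. They also included 3 of the genes under study, Cacna1e, Rxrg and Pgam2 in KO and Cacna1e, Bcas1 and Igfbp7 in WT. The gate used those markers and the choice of genes used leading genes, so both counts were in part set in advance. The KO cells gated by ILC3 markers had none of those 6 markers among their 10 leading genes. These began with H2-Aa, H2-Eb1, Cd74, Ccr6, H2-Ab1 and Cd4, and that class is named by its gate only. Levels are given in CPM, the UMIs of a gene for every 1000000 UMIs of its class, and their intervals are exact Poisson 95% intervals that cover counting error only.

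Because the genes were chosen on precursor cells and Id2 acts on E proteins, the 250 bases before the annotated RefSeq starts (GRCm38.p6) were searched for E-boxes. RefSeq windows were at hand for 6 of the 7 genes, 8 windows in all. An E-box was found in 3 of the 8, whereas 66.2% of all 32851 promoter windows of that length held one. The version CAGCTG was in the same 3 windows (13.0% of all windows) and CAGGTG or its reverse complement CACCTG in 2 (17.2% of all windows). A motif match is a description of letters and shows no binding. The 3 windows with a match are printed because they are the windows of this gene set that hold the motif, each 5′ to 3′ on the gene's strand, with E-boxes in capitals.
Tiam1, internal start, chr16:89818353-89818602, minus strand: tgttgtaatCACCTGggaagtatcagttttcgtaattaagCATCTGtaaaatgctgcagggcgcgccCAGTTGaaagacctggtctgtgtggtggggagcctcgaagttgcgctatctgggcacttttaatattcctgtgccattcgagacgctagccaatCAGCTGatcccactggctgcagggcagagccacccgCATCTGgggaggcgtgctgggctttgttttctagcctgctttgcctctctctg
Rxrg, internal start, chr1:167618015-167618264, plus strand: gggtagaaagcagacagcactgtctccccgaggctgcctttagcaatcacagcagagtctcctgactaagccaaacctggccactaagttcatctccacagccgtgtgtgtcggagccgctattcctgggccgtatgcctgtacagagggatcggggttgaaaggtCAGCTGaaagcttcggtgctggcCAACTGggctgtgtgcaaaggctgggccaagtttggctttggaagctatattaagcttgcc
Pgam2, chr11:5803797-5804046, minus strand: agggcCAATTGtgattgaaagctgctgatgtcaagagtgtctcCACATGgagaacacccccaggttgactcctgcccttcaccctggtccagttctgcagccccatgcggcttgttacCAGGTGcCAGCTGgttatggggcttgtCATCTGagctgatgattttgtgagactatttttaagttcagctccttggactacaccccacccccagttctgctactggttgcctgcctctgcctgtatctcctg
The Tiam1 and Pgam2 windows hold 5 E-boxes each and the Rxrg window 2. The chemistry reads transcript ends away from the start, so which of several starts was used cannot be read from the counts.

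In ILC precursor-like cells, 6 of the 7 genes were lower in KO than in WT and Pgam2 was higher. Bcas1 was at 43.1 CPM (37.5 to 49.4) in KO, against 178 CPM (161 to 198) in WT, and was the only gene of the 7 with a difference of at least 2-fold in either direction. Of 3386 measured genes (50 UMIs or more in KO and WT together, and 50 CPM or more in at least 1 library), 0.295% were at least 2-fold lower and 0.354% at least 2-fold higher in KO. By a fold of 1.25 or more, 5 of the 7 were lower (Bcas1, Tiam1, Cacna1e, Igfbp7 and Stab2), beside 8.89% of all measured genes, and Pgam2 was higher, beside 6.76%. Since the genes were picked on this contrast, nothing follows from these counts. The median difference was -0.61 over the 7 genes and -0.04 over all measured genes, on the scale log2(CPM + 5) of KO minus WT. Id2 was at 306 CPM in KO and 1516 CPM in WT, and Zbtb16 at 534 CPM in KO and 576 CPM in WT. Proliferation genes moved with genotype in the same cells, with 11 of 15 measured cell cycle genes at least 1.25-fold lower in KO. Mki67, a marker of dividing cells, was at 146 CPM in KO and 310 CPM in WT, and the part of cell cycle in the differences of the 7 genes was not tested.

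**Figure D1:**
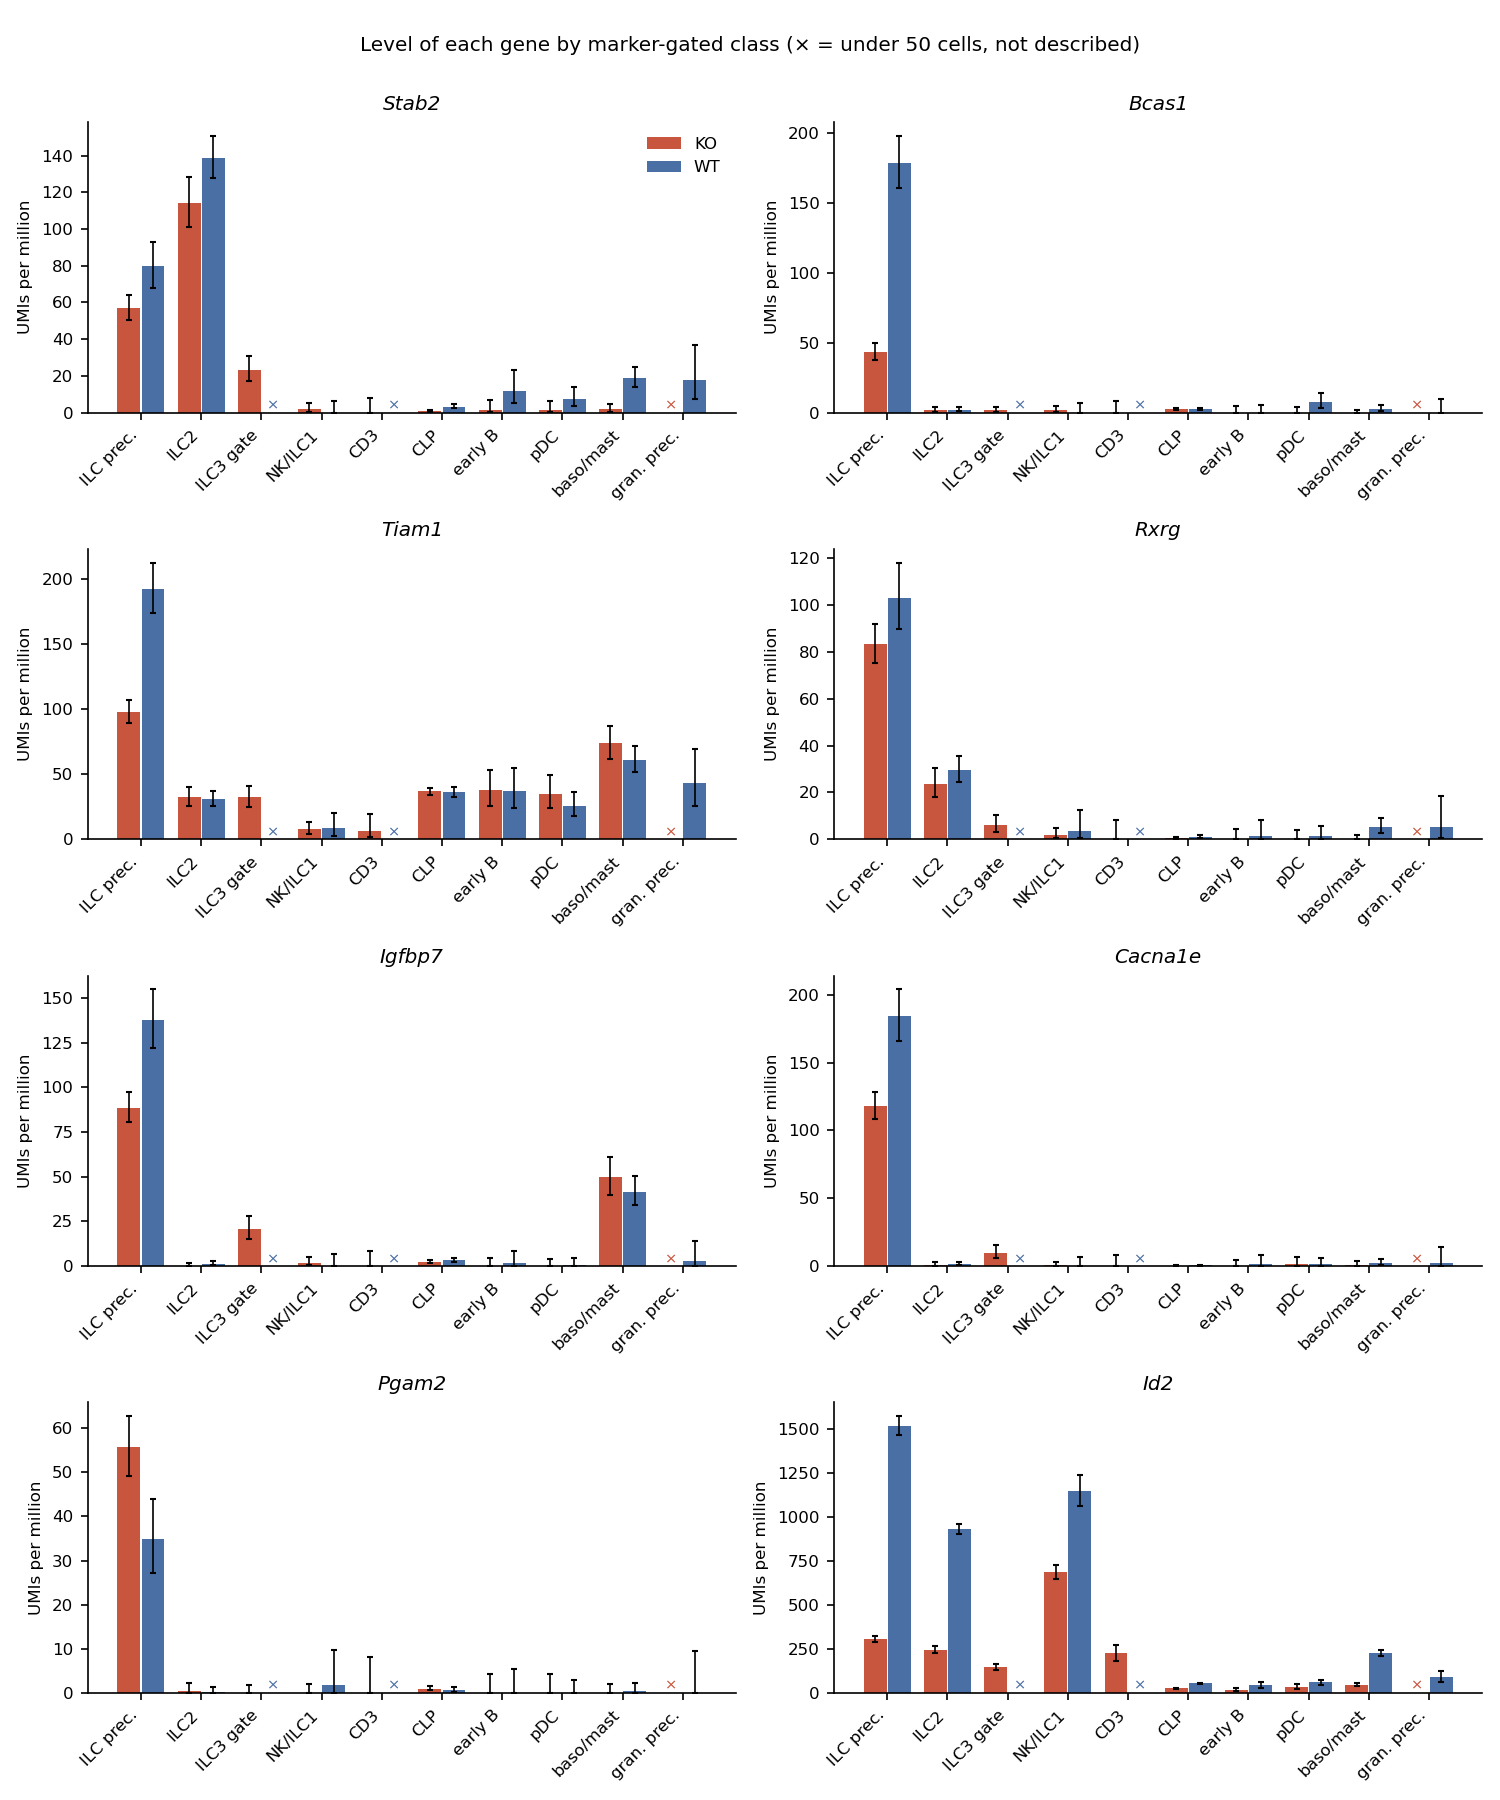
Level of the 7 genes and of Id2 by marker-gated class, in CPM, with KO bars left of WT bars and exact Poisson 95% intervals. A cross marks a class with under 50 cells in that library; prec. is precursor, CLP common lymphoid progenitor, pDC plasmacytoid dendritic cell and gran. granulocyte. Bcas1, Cacna1e and Pgam2 stand above 10 CPM in ILC precursor-like cells only among the plotted bars, while Stab2 is highest in ILC2-like cells and Tiam1 is found in most classes.

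Tiam1 (ENSMUSG00000002489, chromosome 16, 89787111 to 90143769, minus strand, GRCm38) encodes an exchange factor that loads the small GTPase Rac with GTP and so acts on the actin skeleton and adhesion. It was at 98.2 CPM (89.6 to 107) in KO precursors and 193 CPM (174 to 213) in WT precursors, a KO over WT ratio of 0.510 (exact binomial 95% interval 0.445 to 0.584). Tiam1 was not confined to precursors. Basophil or mast cell-like cells had 73.9 CPM in KO and 61.2 CPM in WT, and common lymphoid progenitor-like cells had 36.8 CPM in KO and 36.2 CPM in WT. ILC2-like cells had 32.5 CPM in KO and 31.0 CPM in WT, and NK or ILC1-like cells had 7.85 CPM in KO and 8.75 CPM in WT. The lowest level among classes of at least 50 cells was 6.64 CPM, in KO CD3 lymphocyte-like cells. In the 6 other classes with at least 50 cells in both libraries the ratio lay between 0.897 in NK or ILC1-like cells and 1.36 in plasmacytoid dendritic cell-like cells, and each of those intervals contained 1. The intervals were 0.899 to 1.15 in progenitor-like cells, 0.784 to 1.40 in ILC2-like cells and 0.950 to 1.53 in basophil or mast cell-like cells. With at most 5% mt- UMIs the Tiam1 ratio in precursors was 0.755 (0.634 to 0.900). The 7 genes were chosen on precursor values, so a lower ratio there than elsewhere is a description. The difference between classes was not tested, as each rests on 1 library per genotype.

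Rxrg (ENSMUSG00000015843, chromosome 1, 167598384 to 167639623, plus strand) encodes the gamma form of the retinoid X receptor, the shared dimer partner of the retinoic acid, vitamin D and thyroid hormone receptors. Precursors had 83.4 CPM (75.4 to 91.9) in KO and 103 CPM (89.8 to 118) in WT, a ratio of 0.807 (0.682 to 0.958). ILC2-like cells came next with 23.7 CPM in KO and 29.7 CPM in WT. Every other class with at least 50 cells was at or below 5.89 CPM, the level in KO cells of the ILC3 gate. The sister gene Rxrb was at 30.9 CPM in KO precursors and 36.4 CPM in WT precursors, and Rxra at 6.81 CPM in KO and 12.8 CPM in WT.

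Cacna1e (ENSMUSG00000004110, chromosome 1, 154390731 to 154884501, minus strand) encodes the pore of the R-type voltage-gated calcium channel, best known from neurons. It was at 118 CPM (109 to 128) in KO precursors and 184 CPM (166 to 204) in WT precursors, a ratio of 0.640 (0.561 to 0.731). Among the other classes of at least 50 cells its highest level was 9.82 CPM, in KO cells of the ILC3 gate. The plasma cell-gated cells, only 5 in KO and 6 in WT, had 9 UMIs (79.0 CPM) in KO and 4 UMIs (128 CPM) in WT, while ILC2-like cells had 0.804 CPM in KO and 1.49 CPM in WT. After each cell was thinned at random to 2000 UMIs, 16.3% of KO precursors (13.0% to 20.0%) and 27.3% of WT precursors (20.4% to 35.0%) kept a Cacna1e UMI, and without thinning 36.1% and 46.2% had one. Of ILC2-like cells, 0 in both libraries kept one, and without thinning 0.380% in KO and 0.890% in WT had one. Of the other 19 listed calcium channel genes only Cacna1a reached 50 UMIs, with 24.1 CPM in KO precursors and 17.7 CPM in WT precursors, so the transcripts of partner subunits were mostly under the depth of these sums.

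Igfbp7 (ENSMUSG00000036256, chromosome 5, 77349240 to 77408041, minus strand) encodes a secreted protein that binds insulin-like growth factors with low affinity and is common in vessel walls. Precursors had 88.5 CPM (80.3 to 97.3) in KO and 138 CPM (122 to 155) in WT, a ratio of 0.643 (0.552 to 0.750). A second site was the basophil or mast cell-like class, with 49.6 CPM (39.9 to 61.0) in KO and 41.6 CPM (34.0 to 50.4) in WT, where the ratio of 1.19 had an interval that contained 1. ILC2-like cells had 0 UMIs in KO, which by the limit of 3 counts used for zeros allows up to 1.21 CPM, and 1.24 CPM in WT. Exons of Igfbp7 overlap those of Polr2b on the other strand at its 3′ end, and no source used here states whether the counting used strand. Polr2b was at 31.7 CPM in KO ILC2-like cells and 43.4 CPM in WT ILC2-like cells, the class where Igfbp7 was at or near 0.

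Stab2 (ENSMUSG00000035459, chromosome 10, 86841198 to 87008025, minus strand) encodes stabilin-2, a receptor by which sinusoidal endothelium takes up hyaluronan and other scavenged ligands. It is the one gene of the 7 with a higher level outside the precursors. ILC2-like cells had 114 CPM (101 to 128) in KO and 139 CPM (128 to 151) in WT, a ratio of 0.822 (0.710 to 0.950). Precursors had 56.7 CPM (50.2 to 63.9) in KO and 79.6 CPM (67.9 to 92.9) in WT, a ratio of 0.712 (0.585 to 0.870). Basophil or mast cell-like cells had 1.65 CPM in KO and 18.8 CPM in WT, and common lymphoid progenitor-like cells 0.872 CPM in KO and 3.26 CPM in WT. The KO cells of the ILC3 gate had 23.1 CPM, and the WT granulocyte precursor-like cells 17.9 CPM, each without a counterpart of 50 cells. Stab2 was lower in KO in 6 of the 7 classes that could be compared, the exception being NK or ILC1-like cells with 3 UMIs in KO and 0 in WT. Only precursors and ILC2-like cells reached both 50 UMIs and 50 CPM. Early B-like cells had 1 UMI in KO and 8 in WT, the latter in 1.30% of the WT cells. In plasmacytoid dendritic cell-like cells the interval of the ratio contained 1. Of 8 endothelial markers, Flt4 and Fabp4 had 0 UMIs in the precursors of both libraries, and all 8 together summed to 18.4 CPM in KO and 25.6 CPM in WT, of which Egfl7 made 16.7 CPM in KO and 23.1 CPM in WT. Macrophage markers summed to 7.43 CPM in KO and 8.36 CPM in WT and stromal markers to 3.92 CPM in KO and 2.46 CPM in WT. The antisense gene Gm16268, whose exons overlap the 3′ end of Stab2, had 0 UMIs in precursors and ILC2-like cells of both libraries.

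Bcas1 (ENSMUSG00000013523, chromosome 2, 170346991 to 170427845, minus strand) takes its name from a region amplified in breast cancer and marks newly myelinating oligodendrocytes in the brain. Its KO over WT ratio in precursors was 0.242 (0.203 to 0.287), the fourth lowest of the 3386 measured genes, Id2 being the third at 0.202. After thinning, 6.51% of KO precursors (4.43% to 9.16%) and 17.5% of WT precursors (11.9% to 24.5%) kept a Bcas1 UMI, and without thinning 12.1% and 28.2% had one. NK or ILC1-like cells kept 0 in both libraries after thinning, and 0.633% in KO and 0% in WT had one before it. Among the other classes of at least 50 cells its highest level was 7.21 CPM, in WT plasmacytoid dendritic cell-like cells. Exons of the antisense gene Bcas1os2 overlap those of Bcas1, and its UMIs ran the same way, with 11.8 CPM in KO precursors and 33.9 CPM in WT precursors. The relatives by name, Bcas2 and Bcas3, had ratios of 1.07 and 0.965.

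Pgam2 (ENSMUSG00000020475, chromosome 11, 5801640 to 5803733, minus strand) encodes the muscle form of phosphoglycerate mutase, a late step of glycolysis. It went against the label of the gene set, with 55.7 CPM (49.3 to 62.8) in KO precursors and 34.9 CPM (27.3 to 44.0) in WT precursors, a ratio of 1.60 (1.22 to 2.10). It belongs to the set as a leading gene of the precursors: in every other class with at least 50 cells it was at or below 1.75 CPM, which was 1 UMI in WT NK or ILC1-like cells. The broadly used form Pgam1 ran the other way, with 103 CPM in KO precursors and 138 CPM in WT precursors. Skeletal muscle markers summed to 17.1 CPM in KO precursors and 17.2 CPM in WT precursors, with Acta1, Myh4 and Tnnc2 at 0 in both and Ckm at 12.6 CPM in KO and 12.3 CPM in WT.

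The UMIs of these genes were unevenly spread over the precursors, from 12.1% of KO cells with a Bcas1 UMI to 57.1% of WT cells with a Tiam1 UMI. The 11 richest of 462 KO cells and the 7 richest of 156 WT cells held at least as many Bcas1 UMIs as all other cells of their library together, and the richest cell had 18 Bcas1 UMIs in KO and 43 in WT. The 5 richest cells of a gene held 10.3% (Tiam1) to 29.7% (Bcas1) of its UMIs in KO and 21.6% (Cacna1e) to 54.9% (Pgam2) in WT. Since 5 cells are 1.08% of the KO and 3.21% of the WT precursors, the same share was left out in each library, 15 KO and 5 WT cells for each gene. The KO over WT ratio was then 0.148 (0.113 to 0.192) for Bcas1, 0.522 (0.446 to 0.612) for Tiam1, 0.598 (0.514 to 0.696) for Cacna1e and 0.633 (0.521 to 0.770) for Igfbp7. It was 0.593 (0.456 to 0.774) for Stab2, 0.762 (0.621 to 0.938) for Rxrg and 2.04 (1.39 to 3.09) for Pgam2. All 7 kept their direction, and each interval left 1 out. With 5 cells left out in each library, which takes a larger share of WT, all 7 ratios were higher than over all cells, and those of Stab2 (0.872), Igfbp7 (0.835) and Rxrg (0.944) had intervals that contained 1.

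**Figure D2:**
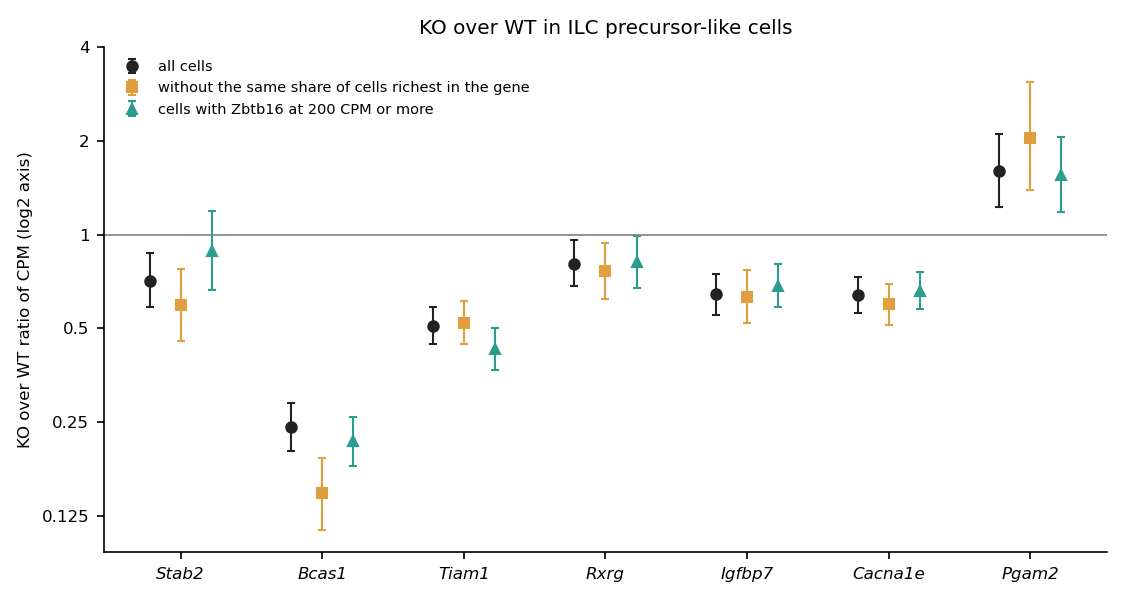
KO over WT ratio of each gene in ILC precursor-like cells on a log2 axis, over all cells, without the 15 KO and 5 WT cells richest in that gene, and over cells with Zbtb16 at 200 CPM or more, with exact binomial 95% intervals. Bcas1 lies between 0.148 and 0.242, Pgam2 lies above 1, and Stab2 has an interval that contains 1 over the cells with Zbtb16 at 200 CPM or more.

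The genes were also counted per cell. At 2000 UMIs per cell, 19.3% of 461 KO precursors (15.8% to 23.2%) and 35.1% of 154 WT precursors (27.6% to 43.2%) had UMIs of at least 2 of the 7. The same share was 0.949% in KO and 2.85% in WT among ILC2-like cells, and among NK or ILC1-like cells 0 of 314 in KO, which allows up to 0.955%, and 0 of 85 in WT, which allows up to 3.53%. Median depths before thinning were 4864.5 UMIs in KO and 6308 UMIs in WT for NK or ILC1-like cells. Spearman correlations between pairs of the genes over thinned precursors, given as a description over cells of 1 library, ranged from -0.11 to 0.18 in KO and from -0.10 to 0.32 in WT, the highest being Bcas1 with Cacna1e in WT.

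The precursors were not uniform in Zbtb16, and the genes differed along it. Cells were set in 3 ranges of their own Zbtb16 level, under 200 CPM (152 KO and 42 WT cells), 200 to 800 CPM (187 and 71) and 800 CPM or more (123 and 43). Median depths over the 3 ranges were 11108, 8236 and 9397 UMIs in KO and 15338.5, 6481 and 13052 UMIs in WT. Since the gate needs a Zbtb16 UMI, shallow cells could not fall under 200 CPM, so the ranges are tied to depth. Cacna1e was at 27.2, 111 and 260 CPM over the 3 ranges in KO, and at 48.4, 149 and 395 CPM in WT. Pgam2 was at 11.4, 33.7 and 151 CPM in KO, and at 2.69, 17.3 and 95.3 CPM in WT. Igfbp7 was at 14.1, 91.4 and 193 CPM in KO, and at 37.6, 150 and 247 CPM in WT. These 3 genes were several times higher in the Zbtb16-rich cells of both libraries, and so was Rxrg, with 42.9, 52.6 and 185 CPM in KO and 52.4, 62.1 and 214 CPM in WT. Leading genes of a Zbtb16-positive state were part of the choice, so this order is a description.

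Bcas1 and Tiam1 separated the genotypes along the same axis. Bcas1 was at 14.1, 22.9 and 114 CPM over the 3 ranges in KO, and at 2.69 (2 UMIs), 175 and 401 CPM in WT. Tiam1 was at 77.2, 92.0 and 138 CPM in KO, and at 78.0, 159 and 375 CPM in WT. In the cells under 200 CPM of Zbtb16 the KO over WT ratio of Tiam1 was therefore 0.990 (0.724 to 1.37), and at 800 CPM or more it was 0.368 (0.300 to 0.450). Bcas1 was on the other side under 200 CPM, with a ratio of 5.26 (1.32 to 45.7) on 26 KO and 2 WT UMIs, and had a ratio of 0.131 (0.0890 to 0.188) in the middle range and 0.284 (0.229 to 0.350) in the upper. Rxrg had ratios of 0.819, 0.846 and 0.867 over the 3 ranges, each with an interval that contained 1.

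Stab2 ran against the others, with 68.5, 73.1 and 16.7 CPM over the 3 ranges in KO and 121, 56.4 and 55.2 CPM in WT. Its KO over WT ratio changed side between ranges, with 0.566 (0.428 to 0.750), 1.30 (0.900 to 1.91) and 0.303 (0.167 to 0.539). Cell cycle genes were highest in the Zbtb16-poor cells. The 15 of them summed to 2745, 1008 and 389 CPM over the ranges in KO and to 4099, 923 and 704 CPM in WT. The parts of cell cycle and of depth in these patterns were not tested.

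**Figure D3:**
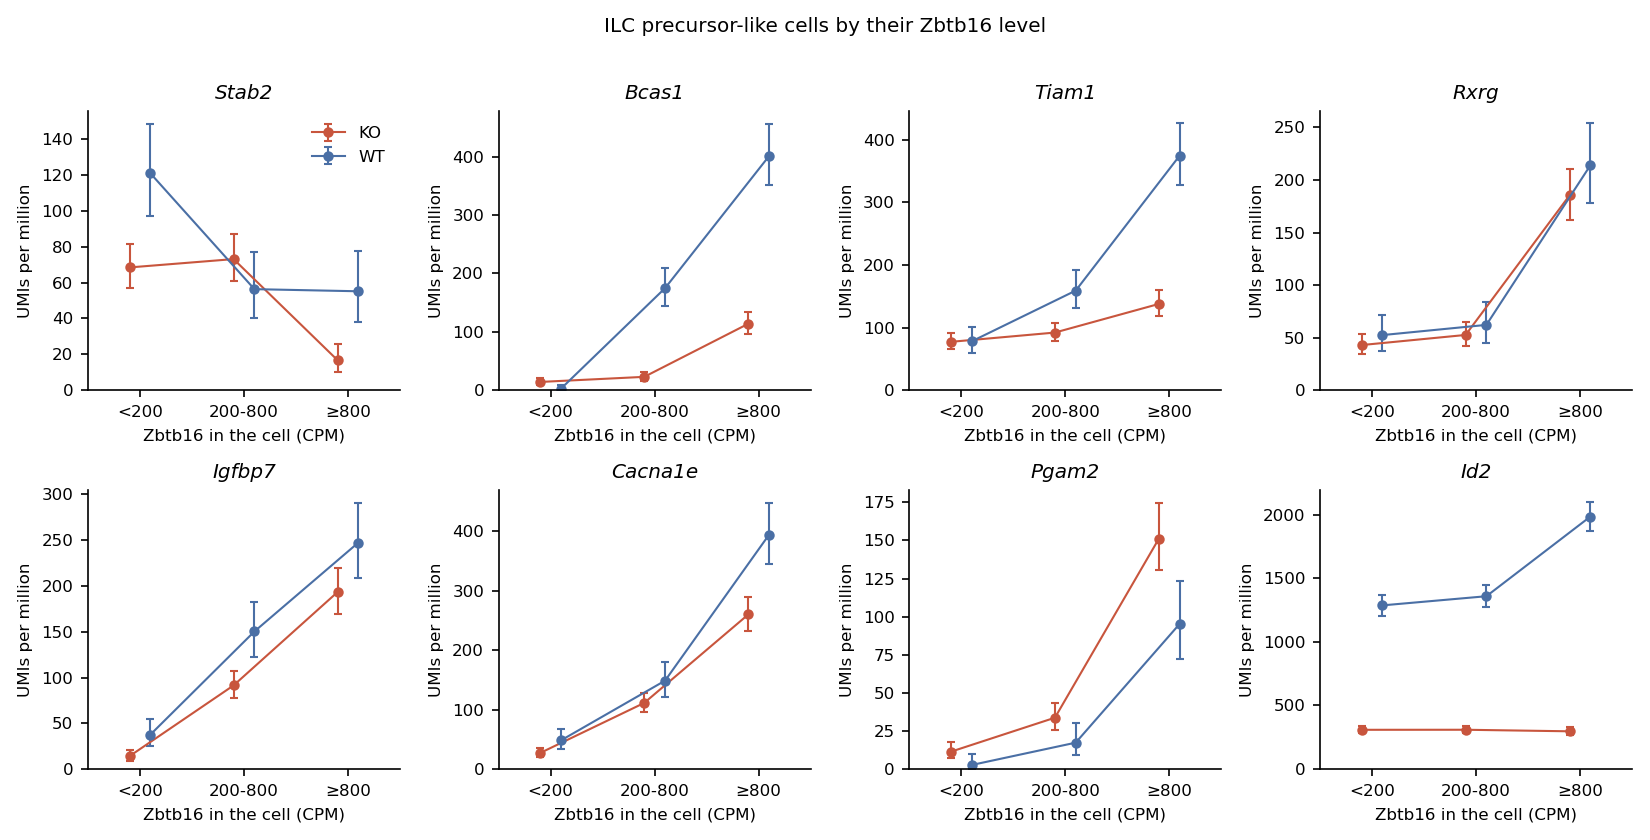
Level of the 7 genes and of Id2 in ILC precursor-like cells by the cell's own Zbtb16 level, in CPM, with KO points left of WT points and exact Poisson 95% intervals. Bcas1 and Tiam1 part between genotypes as Zbtb16 grows, Rxrg keeps close values in KO and WT, and Id2 stays between 297 and 309 CPM in KO in all 3 ranges.

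Whether WT precursors with more Id2 carry more of these genes was examined by setting cells in ranges of their Id2 UMIs after thinning to 2000 UMIs. The levels of the 7 genes in each range are sums over all UMIs of its cells, whose median depth was 11237, 11338 and 10924 UMIs over the 3 ranges in WT. The 7 genes together were at 654 CPM in the 50 WT cells with 0 or 1 Id2 UMI, at 956 CPM in the 47 cells with 2 or 3, and at 1089 CPM in the 57 cells with 4 or more. The ratio of the last to the first was 1.67 (1.48 to 1.88). In KO the sums were 548, 489 and 648 CPM in 386, 61 and 14 cells, with a ratio of 1.18 (0.953 to 1.45). In WT, Pgam2 (52.6 CPM at 4 or more against 17.2 CPM at 0 or 1) and Tiam1 (245 against 117 CPM) were at least 2-fold higher at 4 or more, beside 2.84% of 3657 measured genes, and none of the 7 was at least 2-fold lower, beside 1.09%. All 7 were at least 1.25-fold higher, beside 27.3% of measured genes. The median difference was 0.70 over the 7 genes and 0.06 over all measured genes, on the scale log2(CPM + 5). Over single WT cells the Spearman correlation of the summed genes with Id2 was 0.28 (154 cells) and over KO cells -0.04 (461 cells), as a description. With Zbtb16 the summed genes had a correlation of 0.39 in WT and 0.35 in KO, so the relation to Id2 was not the stronger one. Id2 and Zbtb16 had a correlation of 0.20 in WT and -0.03 in KO.

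Which cells fell in a range depended on the random thinning. Over 20 further draws the WT ratio of the summed genes ran from 1.57 to 3.51 with a median of 1.97. Bcas1, Tiam1, Rxrg and Cacna1e were higher at 4 or more Id2 UMIs in each of the 20 draws, Igfbp7 in 18, Pgam2 in 17 and Stab2 in 14. The lowest and highest ratios over the draws were 1.84 and 3.52 for Tiam1, 1.53 and 6.56 for Cacna1e, and 0.606 and 3.05 for Stab2. Without thinning, 3 equal groups of the WT precursors by their Id2 rate, low to high, had 567, 923 and 1212 CPM of the summed genes, and 3 such groups of the KO precursors had 436, 594 and 615 CPM.

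**Figure D4:**
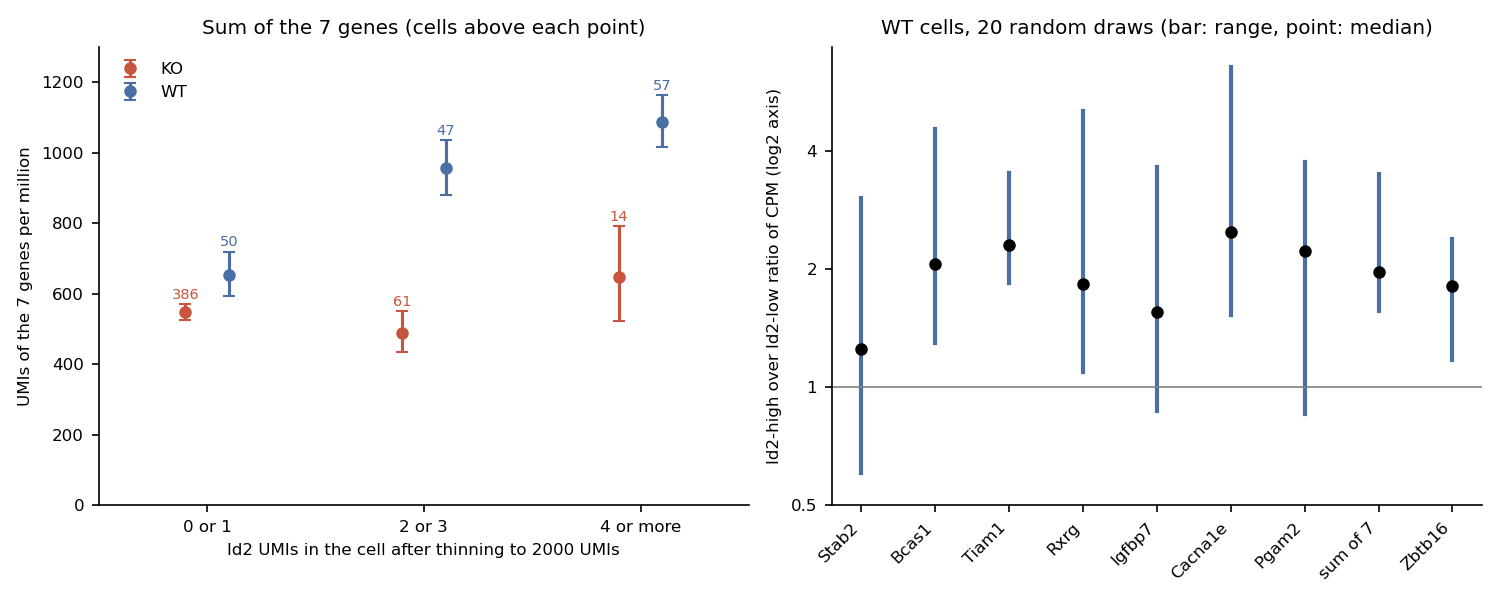
Left, summed level of the 7 genes in CPM in precursors by Id2 UMIs after thinning to 2000 UMIs, KO points left of WT points, with exact Poisson 95% intervals and the number of cells above each. Right, ratio of WT cells with 4 or more Id2 UMIs over those with 0 or 1, as median and range of 20 random draws. The summed genes stay above a ratio of 1 in all draws, between 1.57 and 3.51, and Stab2, Igfbp7 and Pgam2 cross it.

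Other levels moved with Id2 in the same WT cells. Zbtb16 was at 674 CPM with 4 or more Id2 UMIs and at 419 CPM with 0 or 1, and the 20 genes of the ILC2 list summed to 7591 and 4860 CPM. The 15 cell cycle genes ran the other way, with 1944 CPM at 4 or more and 2653 CPM at 0 or 1. Among WT cells with Zbtb16 at 200 CPM or more the ratio of the summed genes was 1.65 (1.46 to 1.88), against 1.67 over all cells. With at least 2 Zbtb16 UMIs needed in the gate it was 1.30 (1.15 to 1.47). Neither limit holds Zbtb16 constant. The summed genes were at 769 CPM in WT cells with Zbtb16 at 200 to 800 CPM and at 1782 CPM at 800 CPM or more. The parts of Zbtb16, of cell cycle and of the ILC2 list were not tested.

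At like Id2 ranges the genotypes still differed for some of the genes. The summed genes had a KO over WT ratio of 0.838 (0.754 to 0.932) at 0 or 1 Id2 UMI, 0.512 (0.443 to 0.591) at 2 or 3 and 0.595 (0.476 to 0.736) at 4 or more. Bcas1 had ratios of 0.281, 0.195 and 0.0881 over the 3 ranges, the last from 3 KO UMIs. At 0 or 1 Id2 UMI the ratios of Tiam1 (0.846), Rxrg (0.973), Igfbp7 (0.859), Cacna1e (0.935) and Stab2 (1.27) had intervals that contained 1, and Pgam2 had a ratio of 3.52 (1.94 to 7.15). The ranges did not equal out Id2 itself, which was at 210 CPM in KO and 554 CPM in WT within the lowest range.

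Across 17 class-by-library profiles with at least 50 cells, the genes most like each of the 7 were ranked by Pearson correlation of log2(CPM + 5) among 5064 genes, as a description of profiles that share libraries and depth. Cacna1e was closest to Tox2 (r = 0.98), an HMG-box factor used in the gate, followed by Pgam2 (0.94) and Bcas1 (0.94). Bcas1 and Pgam2 were each closest to Cacna1e. Next came Tox2 (0.90) and Pgam2 (0.90) for Bcas1, and Mettl27 (0.93) and Tox2 (0.92) for Pgam2, whose 3 closest did not include Bcas1. The 7 genes were chosen on precursor cells, so likeness among them was in part set by that choice. Rxrg was closest to Pdcd1 (0.97), the PD-1 receptor, Dkk3 (0.94) and Zbtb16 (0.94), of which Pdcd1 and Zbtb16 are gate markers. Stab2 was closest to Nav2 (0.95), Hlf (0.93) and Calca (0.91), the calcitonin peptide gene used as an ILC2 marker. Igfbp7 was closest to Chmp5 (0.90), Cela1 (0.90) and Fgf3 (0.88), and Tiam1 to Atp13a3 (0.85), Ube2r2 (0.84) and Cela1 (0.84). Some of these shared the lower KO level in precursors: Tox2 was at 205 CPM in KO and 299 CPM in WT, Calca at 126 CPM in KO and 269 CPM in WT, and Cela1 at 25.6 CPM in KO and 51.1 CPM in WT. Others did not, such as Atp13a3 with 278 CPM in KO and 274 CPM in WT and Dkk3 with 51.4 CPM in KO and 41.8 CPM in WT.

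Lists of related genes were read in the precursors, counting genes with at least 50 UMIs and a fold of at least 1.25, which 15.2% of 9154 such genes passed as lower in KO and 11.9% as higher. In the list of Rac regulators 3 of 22 measured genes were lower, Tiam1, its sister Tiam2 (10.3 CPM in KO, 16.7 CPM in WT) and Cyfip1, and 5 were higher, among them Vav3 (17.7 CPM in KO, 10.8 CPM in WT) and Pak1 (11.1 CPM in KO, 5.90 CPM in WT). Rac1 and Rac2 had ratios of 0.923 and 1.02. In the list of RXR genes, partners and retinoid handling, Rxra was lower and 3 genes were higher of 16 measured, among them Vdr and Nr4a1, with Nr4a1, an early-response nuclear receptor, at 32.2 CPM in KO and 11.8 CPM in WT. The median difference of both lists was near that of all genes, at -0.12 and 0.05 beside -0.03 on the scale log2(CPM + 5).

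In the glycolysis list 6 of 14 measured genes were lower in KO, Pgam2 was the only one higher and the median difference was -0.26. Hk2, the hexokinase that starts the pathway, was at 81.7 CPM in KO and 131 CPM in WT, and Pkm, its last enzyme, at 289 CPM in KO and 407 CPM in WT. Of 4 measured scavenger and hyaluronan receptors, Stab2, Cd44 (59.0 CPM in KO, 85.5 CPM in WT) and Hmmr (19.8 CPM in KO, 29.5 CPM in WT) were lower. Of 6 measured genes of the insulin-like growth factor axis Igfbp7 alone was lower, and Irs2 and Igf2bp3 were higher on 64 or fewer UMIs each. Igfbp4, another binding protein of the axis, was at 510 CPM in KO and 577 CPM in WT.

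Lists of cell identity were read in the same way. The lists of precursor factors, ILC2 genes and T lineage genes contain gate markers, such as Tox2, Il2ra and Themis. Levels of those markers in the precursors depend in part on the gate. Of 16 ILC precursor factors, 6 were lower in KO, among them Id2 and Tox2, and Nfil3, an early ILC factor, was higher with 20.0 CPM in KO and 9.34 CPM in WT. Of 13 measured ILC2 genes, 4 were lower, among them Il2ra (14.9 CPM in KO, 32.0 CPM in WT), and Bcl11b was higher with 377 CPM in KO and 233 CPM in WT. Of 5 measured T lineage genes, 4 were higher, among them the kinase Lck with 167 CPM in KO and 98.8 CPM in WT, and Lef1 was lower. Of 4 measured genes in the list of E proteins and Id proteins only Id2 passed the fold, while the E protein genes Tcf3 (87.5 CPM in KO, 84.6 CPM in WT) and Tcf12 (134 CPM in KO, 112 CPM in WT) did not. Bcas1 was the 1 gene of the 3 BCAS genes that passed it.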

How the data were processed

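For each library the authors deposited a sparse matrix of unnormalised UMI counts; its header names Cell Ranger 3.1.0, per the file headers, with mm10 as genome build and Seurat in an unstated role per the submitters' processing notes. The annotation release and the strand setting are not given in the sources used here. Kept barcodes (at least 1000 genes, at most 10% mt- UMIs) held 42601457 UMIs in KO and 29168870 in WT. A class needed at least 2 distinct markers, strictly more than for any other list, with Zbtb16 among them for the precursors, and was described with at least 50 cells. Counts were summed per class and library (numpy 2.4.6, scipy 1.17.1, pandas 2.3.3), with exact Poisson, binomial and Clopper-Pearson intervals at 95%, all for counting error only. No doublets were removed beyond the gates, because Scrublet (scanpy 1.11.5) marked 48 KO cells (1.11%) and 0 WT cells, which counts as a failed call. Thinning to 2000 UMIs left out 1 KO and 2 WT precursors. Alternatives changed the gate, filters, thinning, pseudocount and doublet removal one at a time. The ratio interval was tried on simulated Poisson counts, with a 2-fold call that also needed the interval below 1. The calls given here did not need that, and the simulation held no spread beyond counting error. Genes of a list are named where they are among the 7 or show up to 4 of its largest differences. Marker lists, related gene lists and the 7 genes were chosen with earlier results of these data known, and the 1.25-fold limit and Zbtb16 ranges after seeing the data. Coordinates come from GENCODE vM21 and windows from RefSeq, both GRCm38.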

Additional observations from a re-analysis of the deposited data

Results flagged for a closer look

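Cells that joined no class carried UMIs of the 7 genes as well, and no comparison above uses them. By the gate, cells with most markers from the precursor list but no Zbtb16 UMI belong here, as do cells with ties between lists. Their summed level was 114 CPM in the 1087 KO cells without a class and 143 CPM in the 742 WT cells without one, above the 15.1 CPM in KO and 14.0 CPM in WT of NK or ILC1-like cells. Tiam1 made the largest part in KO with 41.3 CPM (44.2 CPM in WT) and Stab2 in WT with 65.9 CPM (34.5 CPM in KO). Pgam2 was at 5.30 CPM in those KO cells and at 0.557 CPM (3 UMIs) in those WT cells, the same direction as in the precursors. Cacna1e was at 10.1 CPM in those KO cells and at 6.50 CPM in those WT cells, a ratio of 1.56 (1.04 to 2.38) and the opposite direction to the precursors.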

How the results depend on the processing

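No paired analysis was possible because each genotype has 1 library. The number of the 7 genes at least 2-fold lower in KO was 1 in the report, and Bcas1 was lower in KO under all 12 settings tried for it (ratios 0.148 to 0.348). The number was 2 with at least 2 Zbtb16 UMIs in the gate, with the gate on thinned cells and in cells with Zbtb16 at 200 CPM or more, and 3 with levels from thinned cells. The median difference of -0.61 was -0.39 with at most 5% mt- UMIs, -0.89 with levels from thinned cells and -0.24 without the 5 richest cells of each library, which are unequal shares of the cells; with equal shares left out it was -0.67. The ratio of Rxrg turned to 1.09 (0.878 to 1.35) with at most 5% mt- UMIs. No other ratio of the 7 genes changed direction, but several changed in size. With at most 5% mt- UMIs, Tiam1 was at 0.755 and Cacna1e at 0.769, both closer to 1. With the gate on thinned cells, Igfbp7 was at 0.876 (0.727 to 1.06), while Stab2 fell to 0.509 and Tiam1 to 0.411. With levels from thinned cells, the intervals of Stab2, Rxrg and Pgam2 contained 1. The Id2 ratio of 1.67 was 1.30 with at least 2 Zbtb16 UMIs in the gate, 1.96 with at least 500 genes, 2.10 with at most 5% mt- UMIs, 2.32 after thinning to 1500 UMIs, 2.14 between the highest and lowest of 3 equal groups without thinning and 1.93 in another random draw. The share of all genes at least 2-fold lower was 0.295% and, with 10 UMIs as the only limit, 2.63%. The causes were not tested. Cells richest in a gene, Zbtb16 at 200 CPM and further draws were chosen after seeing the data. Outside precursors most sums of the 7 genes were under 10 UMIs, which leaves wide intervals for their ratios. Low sums were also seen in a deep class. Common lymphoid progenitor-like KO cells held 18346334 UMIs, against 4846917 in KO precursors, and had 3 Cacna1e UMIs.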
